A study of Mus musculus with 17 samples.

Results

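The 43 genes described here copy DNA in S phase: they load and fire the replicative helicase, build the new strands, supply deoxynucleotides and package the copied DNA. The rule is a list of names, matched by symbol, that uses no threshold on a value, but the list was drawn up with earlier results of these data known. All 43 were found among the 55536 gene identifiers of the deposited tables. The purpose of the comparison was to set these genes beside genes of mitosis. All hepatocytes came from livers of 3-month-old C57BL/6J mice of the ApcDHep genotype, in which hepatocytes lack Apc, a brake on β-catenin signalling. Each mouse had been injected 1 month before with an AAV8 vector that carries SaCas9 constructs. Tamoxifen (2 mg, 7 days) was given to all of them, and the cells were isolated by collagenase perfusion. In 6 libraries the editing was aimed at a site bound by β-catenin that lies before the Dlk1-Dio3 locus, labelled DLK1DWRE and called WRE-edited here. In the other 5 it was Rosa26, a locus commonly used as a neutral target, so the controls share the Apc loss, the vector and the drug. The labels name neither the Cre driver, nor the share of edited cells, nor the animals behind a library, and p-values therefore measure the spread between libraries.

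In each cell cycle, origin recognition and licensing proteins load the MCM2-7 helicase onto DNA before S phase, and Cdc45 and the GINS complex then activate it. Polymerases copy both strands, the sliding clamp PCNA tethers them, and nucleases and ligases join the short fragments of the lagging strand. E2F transcription factors switch on most of these genes at the entry into S phase, whereas mitotic genes are switched on later, through the MuvB complex with B-Myb and FoxM1. Most hepatocytes of an adult liver are out of the cell cycle.

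RNA-seq libraries held 20727036 to 38935135 expected counts, and the 43 genes together took 5234 to 10039 of them. Library names carry the run, r770 (3 WRE-edited and 3 Rosa26-edited), r595 (1 and 2) or r711 (2 WRE-edited alone). The share of mitochondrial ribosomal RNA was 2.29% to 3.00% in r595 and 19.02% to 29.09% in the other 8 libraries. Groups were therefore compared within runs. Rian, a long noncoding RNA of the edited locus, was at 48.7 to 113 CPM (counts scaled to library size, with TMM factors) in the WRE-edited and at 171 to 405 CPM in the Rosa26-edited libraries, which do not overlap. Meg3, another of its noncoding RNAs, was at 42.7 to 83.9 CPM and 79.8 to 509 CPM, with a small overlap. The summed level of 8 hepatocyte markers was 39240 to 50810 CPM in the WRE-edited and 40380 to 50870 CPM in the Rosa26-edited libraries. Levels of 8 macrophage markers were 367 to 502 CPM and 328 to 1181 CPM, with the highest sum in Rosa26-edited 5. The 8 markers of stellate cells and fibroblasts were at 44.3 to 107 CPM and 76.1 to 107 CPM.

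Of the 43 genes, 42 passed the filter on low counts, and none of these passed the test between WRE-edited and Rosa26-edited hepatocytes. Their log2 fold changes had a median of -0.19, or 1.14-fold lower in the WRE-edited libraries, and of -0.12 without Rosa26-edited 3. Orc1, the largest subunit of the origin recognition complex, had 1 to 16 counts per library and was left out by the filter. The median over the same fit of 48 mitotic genes was -0.95, or 1.93-fold lower, and over all 14393 genes tested it was 0.01. In bulk RNA, fewer cells in S phase or mitosis and less RNA in each such cell cannot be told apart.

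In edgeR's quasi-likelihood test with Benjamini-Hochberg adjustment, 0 of the 42 genes were lower and 0 were higher at an adjusted p under 0.05, with a smallest adjusted p of 0.414. Of all genes tested 0.00695% were called lower and 0% higher. DESeq2 also called 0 of the 42 at that threshold, although it gave E2f7 no adjusted p. Of the 13823 genes to which it gave an adjusted p, it called 0.477% lower and 0.123% higher. At an unadjusted p under 0.05, 5 of the 42 (11.9%) were lower, against 5.14% of all genes, and 0 were higher, against 4.95%. These 5 were Mcm5, Fen1, Rrm2, Pola1 and Gins2. The count was 2 without WRE-edited 3, 3 without WRE-edited 6 and 2 in r770 alone. A count of 2 of 42 is no higher than the 5.14% of all genes in the main fit. The shares of all genes in those other fits are not given here. Of the 42 genes 29 (69%) had a negative fold change, against 48.3% of all genes, and 22 were negative in both r770 and r595, against 28.5%. The quartiles were -0.33 and 0.01, against -0.21 and 0.18 over all genes. Within 0.2 of 0 lay 22 of the 42 genes, a share close to that of all genes. Of all genes, 26.01% lay at or below -0.2 and 77.22% at or below 0.2.

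**Figure D1:**
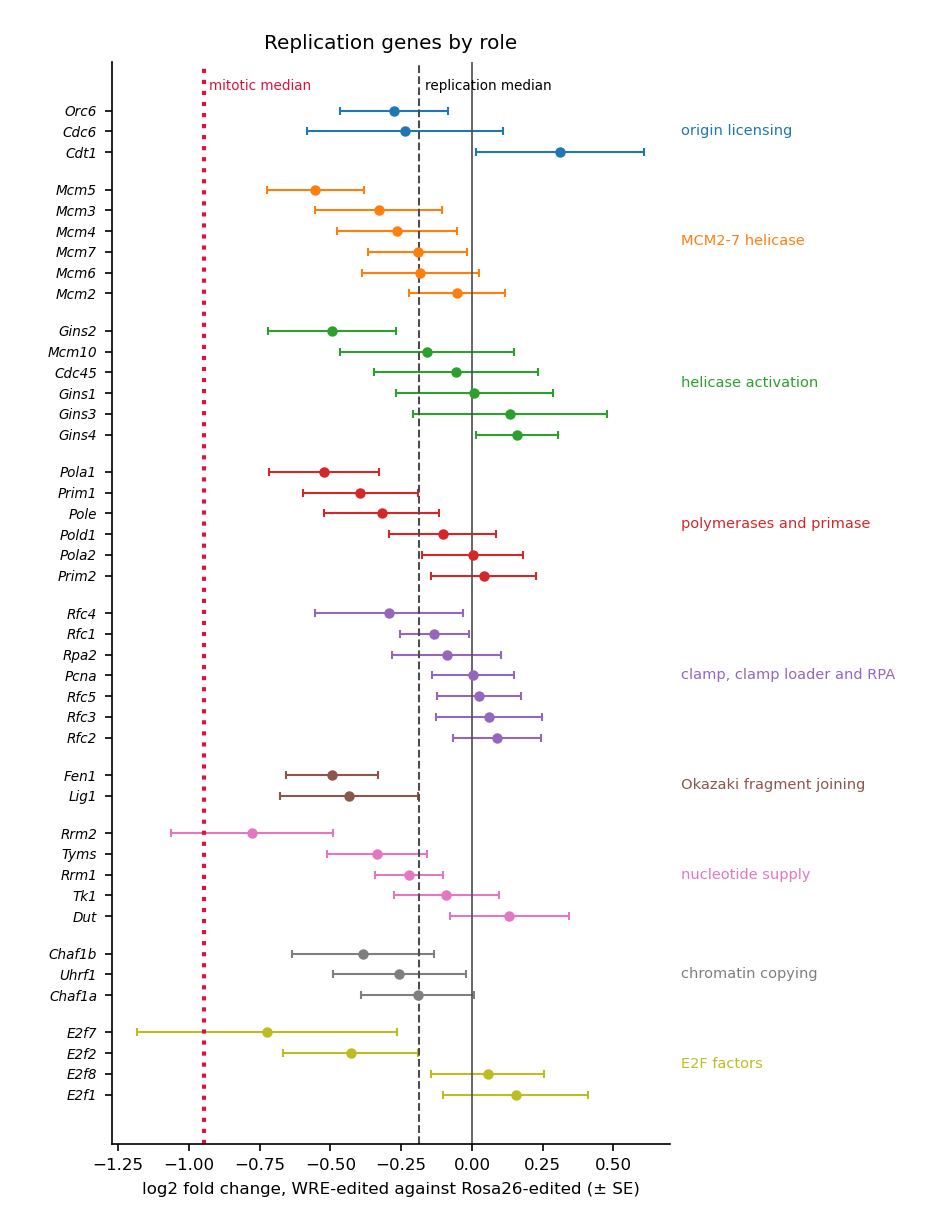
Log2 fold change (± SE) of each of the 42 replication genes tested, WRE-edited against Rosa26-edited within run, grouped and coloured by role; dashed and dotted lines mark the medians of the replication genes (-0.19) and of 48 mitotic genes (-0.95). Every point lies to the right of the mitotic median, and the clamp, clamp loader and RPA group has the median nearest to 0 (0.01). This rank rests on WRE-edited 6, without which that median was -0.09 and that of helicase activation was -0.005.

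Most of these genes were present at low levels. On the length-corrected TPM scale, over all 11 libraries, Pcna had the highest mean (13.5 ± 2.85 TPM, SD, n = 11), followed by Rfc2 (9.95 ± 2.1 TPM), Mcm10 (7.14 ± 4.14 TPM), Tyms (5.13 ± 1.52 TPM) and Gins4 (4.96 ± 0.753 TPM). Tyms and Gins4 differed by less than their spread, and Mcm10 differed from Rfc2, Tyms and Gins4 by less than its own SD. At the low end were Orc1 (0.095 TPM), E2f7 (0.164 TPM), Cdc6 (0.225 TPM), Gins3 (0.245 TPM) and E2f2 (0.361 TPM), each with a spread as large as the gap to its neighbour. TPM values include the mitochondrial ribosomal RNA, whose share differed between runs.

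Promoter letters were compared because members and mitotic genes differ in their known regulators. RefSeq promoters of GRCm38.p6, 250 bases before to 50 after the start, matched 36 of the 43 replication genes and 40 of the 48 mitotic genes. Words were counted per gene, and a gene counted if any of its promoters held the word. An E2F word (TTTCCCGC, TTTCGCGC, TTTGCCGC or TTTGGCGC, on either strand) stood in 15 of 36 replication genes (41.7%) and in 4 of 40 mitotic genes (10%). The share was 4.6% among tested genes with a promoter and 2.6% among all 27025 genes with a promoter. A CHR word, the element bound by the MuvB complex (TTTGAA or TTTAAA, on either strand), stood in 10 of 36 (27.8%) and 34 of 40 (85.0%). The share was 23.6% among tested genes with a promoter and 30.6% among all genes with a promoter. CCAAT stood in 63.9% of the replication and 75% of the mitotic genes with a promoter, against 41.1% of all genes with one. E2F words on the 2 strands can overlap each other, and TTTAAA is its own reverse complement. A match is a description of letters and not of binding. The 160 bases before the start are shown for Mcm6 and Rfc3, replication genes with an E2F word, and for Ccnb1 and Ube2c, mitotic genes with a CHR word; they were picked, with their letters seen, among stretches outside every annotated gene, and capitals mark the words.
Mcm6 (chr1:128359706-128359865, minus strand): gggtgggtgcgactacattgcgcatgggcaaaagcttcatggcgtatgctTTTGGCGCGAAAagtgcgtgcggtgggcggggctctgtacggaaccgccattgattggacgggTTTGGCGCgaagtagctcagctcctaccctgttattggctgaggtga
Rfc3 (chr5:151651209-151651368, minus strand): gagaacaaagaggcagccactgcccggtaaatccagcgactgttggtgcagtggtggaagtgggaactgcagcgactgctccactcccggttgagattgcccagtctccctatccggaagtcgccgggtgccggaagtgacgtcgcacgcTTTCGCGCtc
Ccnb1 (chr13:100786487-100786646, minus strand): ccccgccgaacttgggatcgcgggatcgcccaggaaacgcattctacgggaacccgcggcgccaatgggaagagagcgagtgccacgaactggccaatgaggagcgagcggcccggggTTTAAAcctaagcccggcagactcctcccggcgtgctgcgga
Ube2c (chr2:164769769-164769928, plus strand): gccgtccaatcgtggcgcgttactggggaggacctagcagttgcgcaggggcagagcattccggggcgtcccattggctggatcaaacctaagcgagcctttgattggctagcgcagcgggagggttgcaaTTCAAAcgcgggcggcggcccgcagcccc
Mcm6 holds 3 E2F words, of which 2 overlap, and Rfc3 holds 1 that ends 3 bases before the start. The CHR word of Ccnb1 ends 37 bases and that of Ube2c 24 bases before the start. Mcm6, a helicase subunit, had a log2 fold change of -0.18 ± 0.21 and Rfc3, a clamp loader subunit, of 0.06 ± 0.19. Ccnb1, which encodes cyclin B1, had -1.40 ± 0.24 (adjusted p = 0.213, edgeR's quasi-likelihood test with Benjamini-Hochberg adjustment), below the mitotic median of -0.95. The fold change of Ube2c was -1.01 in DESeq2. These picked genes do not stand for their lists. Within the replication genes the median log2 fold change was -0.21 for the 10 genes with an E2F word alone, -0.07 for the 6 with a CHR word alone (Cdc45, E2f8, Fen1, Mcm2, Rrm2 and Tk1), -0.34 for the 4 with both and -0.16 for the 15 with neither. Within the mitotic genes it was -0.98 for the 30 with a CHR word alone, -0.78 for the 4 with both and -0.92 for the 6 with neither. The 6 replication genes with a CHR word alone ranged from -0.78 for Rrm2 to 0.06 for E2f8 and include Fen1, so their median hides a wide spread.

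Origin licensing was represented by 4 genes, of which 3 were tested. Orc6, a subunit of the origin recognition complex, was at 3.24, 4.76 and 4.64 CPM in the Rosa26-edited and at 3.81, 3.35 and 3.72 CPM in the WRE-edited libraries of r770. In r595 it was at 2.48 and 1.91 CPM against 1.62 CPM, and in r711 at 3.71 and 3.92 CPM. The groups overlapped in r770, while WRE-edited 6 was the lowest of all libraries, and the log2 fold change was -0.28 ± 0.19. Cdc6, which recruits the helicase to origins, was near 1 CPM throughout: 0.684, 1.22 and 0.571 CPM against 0.732, 0.781 and 0.491 CPM in r770, 1.07 and 1.36 CPM against 1.14 CPM in r595, and 0.714 and 0.687 CPM in r711. Its groups overlapped in both runs (-0.24 ± 0.35). Cdt1, the other loading factor, had the highest fold change of the list, 0.31 ± 0.30, with an unadjusted p of 0.317. Its levels were 1.46, 2.32 and 2.35 CPM in the Rosa26-edited and 1.94, 2.92 and 3.09 CPM in the WRE-edited libraries of r770, 2.52 and 2.2 CPM against 2.63 CPM in r595 and 1.43 and 3.84 CPM in r711. The lowest and the highest library for Cdt1 were both WRE-edited, and both came from r711.

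All 6 subunits of the MCM2-7 helicase, which unwinds DNA at the fork, had fold changes below 0 (median -0.23). Mcm5 stood out by its unadjusted p. It was at 9.13, 9.49 and 9.03 CPM in the Rosa26-edited and at 5.45, 5.81 and 6.28 CPM in the WRE-edited libraries of r770. Levels in r595 were 9.43 and 14.3 CPM against 9.43 CPM, and those in r711 were 5.9 and 9.17 CPM. All WRE-edited libraries lay below all Rosa26-edited libraries in r770, by a gap wider than the spread within either group. In r595 WRE-edited 6 lay below Rosa26-edited 4 by less than the third digit shows and well below Rosa26-edited 5. The log2 fold change was -0.55 ± 0.17 (1.47-fold lower, 95% interval -0.93 to -0.18), with an unadjusted p of 0.00697 and an adjusted p of 0.414 (edgeR's quasi-likelihood test with Benjamini-Hochberg adjustment). It was -0.48 without Rosa26-edited 5.

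The other helicase subunits showed overlapping groups in r770. Mcm3 was at 6.66, 8.54 and 6.56 CPM against 6.66, 5.5 and 5.37 CPM in r770, at 5.73 and 8.19 CPM against 5.39 CPM in r595 and at 4.19 and 9.53 CPM in r711, with a fold change of -0.33 ± 0.23. WRE-edited 6 lay below both controls of r595, and the r711 libraries held both the lowest and the highest value. Mcm4 was at 5.89, 6.59 and 4.92 CPM against 5.31, 4.86 and 4.87 CPM in r770, at 6.73 and 11.7 CPM against 7.06 CPM in r595 and at 5.33 and 9.74 CPM in r711 (-0.27 ± 0.21). Its highest library was Rosa26-edited 5. Mcm2, often used as a marker of licensed cells, was at 7.14, 5.7 and 5.74 CPM against 5.38, 5.18 and 6.56 CPM in r770, at 7.62 and 9.8 CPM against 9.3 CPM in r595 and at 5.8 and 8.73 CPM in r711. Its groups overlapped in both runs (-0.05 ± 0.17, 95% interval -0.42 to 0.32). The partners Mcm6 (-0.18 ± 0.21) and Mcm7 (-0.19 ± 0.17) lay close to the median of the list; Mcm7 shares its locus with Ap4m1 and 3 microRNA genes.

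The factors that activate the helicase were split, with 3 negative and 3 positive fold changes and a median of -0.02. Leaving out 1 library changed its sign, from -0.16 without Rosa26-edited 1 to 0.05 without WRE-edited 3. Gins2, a subunit of the GINS complex, was at 3.72, 3.11 and 5.1 CPM in the Rosa26-edited and at 2.71, 2.08 and 2.94 CPM in the WRE-edited libraries of r770. For r595 the values were 2.55 and 3.78 CPM against 2.76 CPM, and those in r711 were 2.47 and 3.07 CPM. The groups of r770 did not overlap, while WRE-edited 6 lay between the Rosa26-edited libraries of r595. The log2 fold change was -0.49 ± 0.23 (unadjusted p 0.0493, adjusted p 0.492, edgeR's quasi-likelihood test with Benjamini-Hochberg adjustment) and -0.33 without Rosa26-edited 3, the library with the highest Gins2. The other GINS subunits were positive: Gins1 at 0.01 ± 0.28, Gins3 at 0.14 ± 0.34 and Gins4 at 0.16 ± 0.14. Gins4 was at 7.94, 9.91 and 6.89 CPM against 8.12, 8.21 and 9.96 CPM in r770, at 8.06 and 7.75 CPM against 9.91 CPM in r595 and at 8.99 and 8.36 CPM in r711, so WRE-edited 6 was above both Rosa26-edited libraries of its run. The 4 subunits form 1 complex, and their fold changes ranged from -0.49 to 0.16.

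Mcm10, which helps Cdc45 and GINS to open the fork, varied more between runs than between groups. It was at 16, 17.8 and 21.9 CPM in the Rosa26-edited and at 26.7, 20.3 and 6.84 CPM in the WRE-edited libraries of r770. In r595 it was at 6.1 and 7.6 CPM against 5.00 CPM, and in r711 at 24.1 and 21.9 CPM. The r595 libraries were low, and so was WRE-edited 3 of r770. The log2 fold change between groups was -0.16 ± 0.31. Cdc45 itself had a fold change of -0.06 ± 0.29.

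Polymerases and primase had a median of -0.21 (-0.13 without WRE-edited 1, -0.08 without Rosa26-edited 3), with 4 of 6 genes negative. Pola1, the catalytic subunit of the polymerase that starts each new strand, was at 7.79, 10.3 and 6.53 CPM in the Rosa26-edited and at 7.47, 6.88 and 5.05 CPM in the WRE-edited libraries of r770. The r595 values were 7.92 and 7.42 CPM against 3.9 CPM, and those in r711 were 6.85 and 7.84 CPM. The groups of r770 overlapped, and WRE-edited 6 was the lowest library of all. The log2 fold change was -0.52 ± 0.20 (1.44-fold lower, unadjusted p 0.0191, adjusted p 0.441, edgeR's quasi-likelihood test with Benjamini-Hochberg adjustment) and -0.35 without WRE-edited 6. Pola2, the subunit that binds Pola1, was at 0.00 ± 0.18.

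Prim1, the catalytic primase subunit, had a fold change of -0.40 ± 0.20, and Prim2, its partner, of 0.04 ± 0.19. Prim1 was at 4.08, 6.07 and 3.39 CPM against 3.99, 3.53 and 3.3 CPM in r770, at 3.00 and 3.27 CPM against 2.1 CPM in r595 and at 4.61 and 5.58 CPM in r711. Its groups overlapped in r770, and WRE-edited 6 was again the lowest library. Pole, the leading-strand polymerase, was at 3.93, 4.24 and 5.64 CPM against 2.78, 3.7 and 3.61 CPM in r770, at 4.7 and 5.29 CPM against 4.87 CPM in r595 and at 4.47 and 7.35 CPM in r711 (-0.32 ± 0.20). Its groups did not overlap in r770 but did in r595, and the highest library was WRE-edited 5 of r711. Pold1, the catalytic subunit of the lagging-strand polymerase, was at -0.10 ± 0.19.

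The clamp, its loader and RPA lay around 0 in the fit over both runs, with a median of 0.01 and 4 of 7 genes positive. The runs differed in sign, with a median of -0.07 in r770 and 0.24 in r595, which has 1 WRE-edited library. Without that library, WRE-edited 6, the median of the fit was -0.09. Pcna, the sliding clamp and a common marker of S phase, was at 23.9, 32.1 and 21 CPM in the Rosa26-edited and at 24.9, 24.3 and 23.1 CPM in the WRE-edited libraries of r770. In r595 it was at 17.1 and 21.8 CPM against 22.8 CPM, and in r711 at 24.5 and 28.5 CPM. All 3 WRE-edited libraries of r770 lay between the Rosa26-edited ones, and WRE-edited 6 lay above both controls of r595. The log2 fold change of Pcna was 0.01 ± 0.14, with a 95% interval of -0.31 to 0.32, so these data do not exclude a difference of that size in either direction.

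Among the loader subunits, Rfc2 (0.09 ± 0.15), Rfc3 (0.06 ± 0.19) and Rfc5 (0.03 ± 0.15) were positive, and Rfc1 (-0.13 ± 0.12) and Rfc4 (-0.29 ± 0.26) were negative. Rfc4 was at 2.32, 3.54 and 2.71 CPM against 1.98, 1.53 and 2.42 CPM in r770, at 1.7 and 1.51 CPM against 1.93 CPM in r595 and at 2.52 and 4.08 CPM in r711. WRE-edited 5 was its highest library, and the gene overlaps Eif4a2 in the annotation. Rfc1 was at 23, 26.4 and 25.5 CPM against 24.2, 21.5 and 18.5 CPM in r770, at 23.8 and 23.6 CPM against 24.7 CPM in r595 and at 24 and 28.5 CPM in r711. Rfc2 was at 12.3, 16.9 and 14.6 CPM against 13.1, 12.9 and 16.4 CPM in r770, at 7.73 and 10.6 CPM against 12.1 CPM in r595 and at 14 and 13 CPM in r711. The groups of all 3 overlapped in r770, and in r595 WRE-edited 6 was above both controls for each. Rpa2, a subunit of the protein that coats single-stranded DNA, was at -0.09 ± 0.19.

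Both genes of lagging-strand joining were negative, with a median of -0.46. Fen1, the nuclease that trims the fragments, was at 5.71, 6.62 and 5.67 CPM in the Rosa26-edited and at 4.32, 4.68 and 4.07 CPM in the WRE-edited libraries of r770. In r595 the levels were 3.22 and 4.37 CPM against 2.54 CPM, and those in r711 were 4.61 and 5.41 CPM. Groups did not overlap within either run, and each group was lower in r595 than in r770. The log2 fold change was -0.49 ± 0.16 (1.41-fold lower, 95% interval -0.85 to -0.14), with an unadjusted p of 0.0098 and an adjusted p of 0.427 (edgeR's quasi-likelihood test with Benjamini-Hochberg adjustment). Fen1 overlaps Tmem258 in the annotation, and no source used here says whether counting used the strand. Lig1, the ligase that seals the fragments, was at 3.36, 4.3 and 3.25 CPM against 3.84, 2.69 and 3.12 CPM in r770, at 3.48 and 5.33 CPM against 2.06 CPM in r595 and at 2.9 and 3.88 CPM in r711. Its groups overlapped in r770 and were apart in r595, and the fold change was -0.43 ± 0.24.

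**Figure D2:**
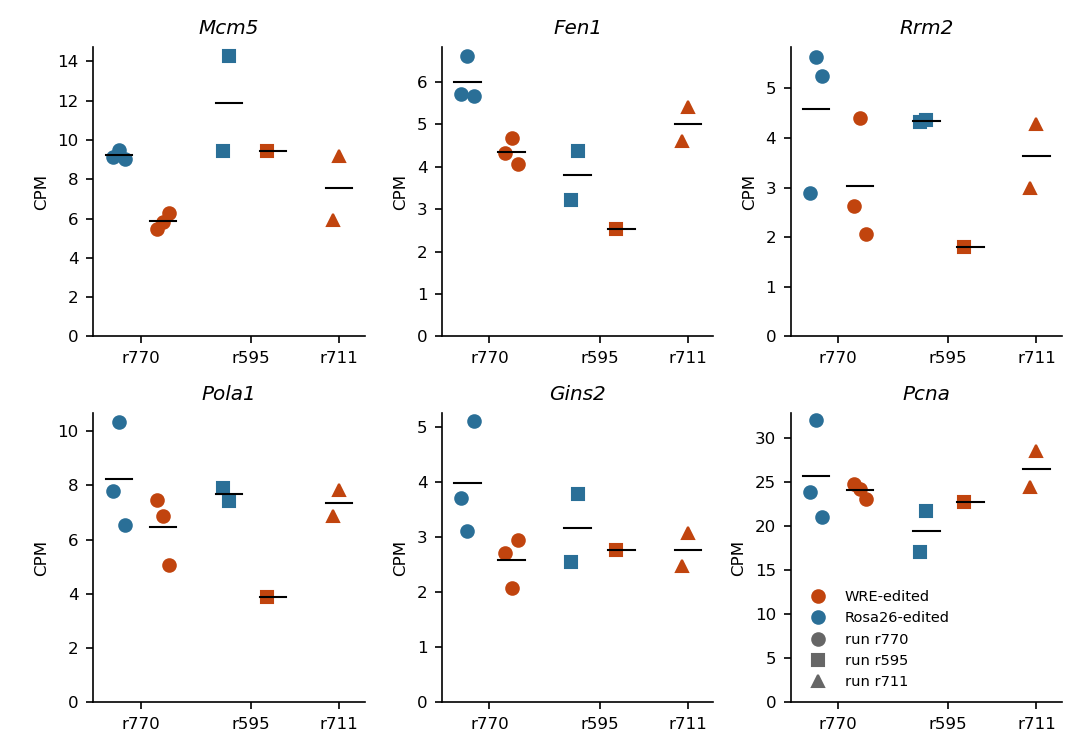
TMM-scaled CPM of the 5 replication genes with an unadjusted p under 0.05 and of Pcna, per library (points, coloured by group, shaped by run), with black bars for the mean of each group in a run. Mcm5, Fen1 and Gins2 do not overlap between groups in r770, Rrm2 and Pola1 do, and the 3 WRE-edited libraries of r770 lie between the controls for Pcna.

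Nucleotide supply had a median of -0.22, with 4 of 5 genes negative. Rrm2, the regulatory subunit of ribonucleotide reductase, had the lowest fold change of the list, -0.78 ± 0.29 (1.72-fold lower). It was at 2.88, 5.64 and 5.24 CPM in the Rosa26-edited and at 2.63, 4.4 and 2.07 CPM in the WRE-edited libraries of r770. Its r595 levels were 4.33 and 4.37 CPM against 1.8 CPM, and those in r711 were 3.00 and 4.28 CPM. The groups of r770 overlapped, with Rosa26-edited 1 low and WRE-edited 2 high, and WRE-edited 6 was the lowest library. The unadjusted p was 0.0178 and the adjusted p 0.441 (edgeR's quasi-likelihood test with Benjamini-Hochberg adjustment). Leaving out 1 library at a time gave fold changes from -0.59 without WRE-edited 6 to -1.07 without WRE-edited 2. Without WRE-edited 3 and 6, the WRE-edited libraries lowest in mitotic genes, it was -0.38, an alternative chosen after seeing the data.

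Rrm1, the catalytic subunit, was at 13.1, 15.1 and 12 CPM against 10.7, 11.3 and 11.1 CPM in r770, at 11.8 and 13.5 CPM against 11.9 CPM in r595 and at 12.5 and 13.7 CPM in r711. Its groups did not overlap in r770, yet the gap was under 1 CPM and the fold change was -0.22 ± 0.12. Tyms, which makes thymidylate, was at 5.98, 7.72 and 6.6 CPM against 5.53, 6.42 and 5.96 CPM in r770, at 4.11 and 5.84 CPM against 2.98 CPM in r595 and at 6.85 and 7.8 CPM in r711 (-0.34 ± 0.18). WRE-edited 6 was its lowest library, while the groups of r770 overlapped. Tk1, the thymidine salvage kinase, was at -0.09 ± 0.18, and Dut, which removes dUTP, was at 0.13 ± 0.21.

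The 3 genes that copy chromatin were negative, with a median of -0.26. Chaf1b, a subunit of the histone chaperone CAF-1, was at 1.55, 1.95 and 1.85 CPM against 1.02, 1.27 and 1.72 CPM in r770, at 1.85 and 1.65 CPM against 1.4 CPM in r595 and at 1.57 and 1.45 CPM in r711 (-0.39 ± 0.25). Chaf1a, its largest subunit, was at 3.33, 2.62 and 3.28 CPM against 2.75, 2.54 and 2.24 CPM in r770, at 4.14 and 3.6 CPM against 3.95 CPM in r595 and at 2.33 and 3.72 CPM in r711 (-0.19 ± 0.20). Uhrf1, which carries DNA methylation through replication, was at 2.44, 2.96 and 2.68 CPM against 2.31, 2.95 and 2.03 CPM in r770, at 3.62 and 7.23 CPM against 3.81 CPM in r595 and at 2.57 and 2.91 CPM in r711 (-0.26 ± 0.23). The groups overlapped in r770 for all 3, and the high Uhrf1 value was Rosa26-edited 5.

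The E2F factors differed in sign. E2f1, an activator, was at 1.34, 1.37 and 1.71 CPM against 1.68, 2.14 and 2.00 CPM in r770, at 3.03 and 2.39 CPM against 2.02 CPM in r595 and at 1.05 and 1.33 CPM in r711. Its within-run difference was 0.38 in r770 and -0.40 in r595 on the log2 scale, and the fold change over both was 0.15 ± 0.26. E2f2, another activator, was at 1.9, 1.5 and 2.1 CPM against 1.21, 1.39 and 1.33 CPM in r770, at 2.11 and 2.9 CPM against 2.02 CPM in r595 and at 1.05 and 1.05 CPM in r711. Groups did not overlap within either run (-0.43 ± 0.24, unadjusted p 0.0949). The atypical repressor E2f7 was under 1 CPM in every library, with 0.446, 0.366 and 0.856 CPM against 0.403, 0.463 and 0.21 CPM in r770, 0.481 and 0.441 CPM against 0.219 CPM in r595 and 0.285 and 0.525 CPM in r711 (-0.72 ± 0.46). Its fold change has the largest SE of the list. E2f8, the other atypical repressor, was at 0.06 ± 0.20.

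Within r770, the WRE-edited libraries were all lower than the Rosa26-edited ones for 6 of the 42 genes (14.3%), against 4.34% of all genes. These were Mcm5, Gins2, Pole, Fen1, Rrm1 and E2f2. The reverse order was seen for 0 of the 42, against 3.29%. In r595, WRE-edited 6 lay below both controls for 19 (45.2%), against 34.4%, and above both for 12, against 40.4%. Mcm5, Fen1 and E2f2 were below in both runs, 3 of 42 against 2.43% of all genes. In r595, which has 1 WRE-edited library, the gap to the nearer control was negligible for Mcm5 and small for E2f2. Over all 11 libraries 0 of the 42 were apart, against 0.222%. The median was -0.17 in r770 and -0.13 in r595, and in a test of run by group 0 of the 42 genes had an unadjusted p under 0.05, against 6.52% of all genes, and 0 an adjusted p under 0.05, against 0%. The smallest of these unadjusted p-values was 0.0887, for Lig1.

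The mitotic genes lay apart from the replication genes in the same fit. Of the 48, 46 were negative, 39 (81.2%) were lower at an unadjusted p under 0.05, against 5.14% of all genes, and 0 passed at an adjusted p under 0.05 in edgeR, with a smallest adjusted p of 0.213. DESeq2 called 17 of them lower, against 0.477% of the genes to which it gave an adjusted p. With no filter on low counts, edgeR called 25 lower, against 1.15% of all genes called lower and 0.476% called higher in that fit. Both called 0 replication genes in either direction. These values depend on the libraries and the run term. Within runs, the mitotic median was -0.77 in r770 and -1.48 in r595, which has 1 WRE-edited library. The replication medians in these runs were -0.17 and -0.13. The mitotic median was -0.39 with 3 genes lower when the fit had no run term, and 21 genes were lower in r770 alone. Without WRE-edited 3 and 6 the median was -0.52 with 20 genes lower. Shares of all genes in these fits are not given here. The smallest p-values were those of Racgap1, needed for cytokinesis (-1.04 ± 0.17), Ccnb1 (-1.40 ± 0.24), Nuf2, a kinetochore protein (-1.52 ± 0.28), and Top2a, which untangles sister DNA (-0.97 ± 0.18). None of the 42 replication genes lay below the mitotic median, and 2 of the 48 mitotic genes lay above the replication median. In the main fit the medians differed by 0.76, and the gap was wider in r595 than in r770. The 95% interval of the fold change lay wholly above the mitotic median for 37 of the 42 replication genes and reached it for Rrm2, Gins2, Lig1, Cdc6 and E2f7. For 4 of the 37 (Mcm5, Chaf1b, E2f2 and Pola1) the lower limit was within 0.05 of that median, so the count is sensitive to small shifts. For 31 of the 48 mitotic genes the interval lay wholly below the replication median. Both counts take the median of the other list as fixed, although it comes from the same libraries and moves with them. Genes measured in the same libraries are not independent, so these counts are descriptions. Within r770, 28 mitotic genes (58.3%) were apart between groups, against 4.34% of all genes.

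**Figure D3:**
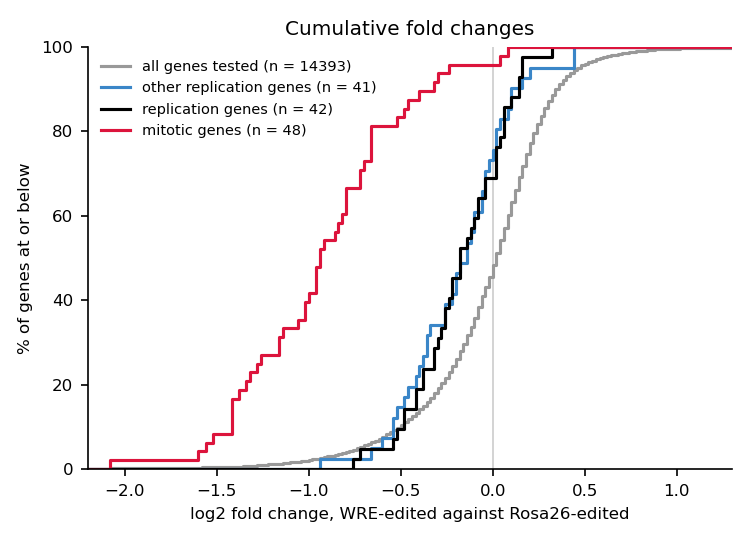
Cumulative share of genes (vertical axis, %) at or below a log2 fold change (horizontal axis) for 42 replication genes, 41 other replication genes, 48 mitotic genes and all 14393 genes tested. Around its middle the replication curve runs to the left of that of all genes (medians -0.19 and 0.01), below -0.5 it lies to the right (4.76% against 7.71% at or below -0.6), and the mitotic curve has its median at -0.95.

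Per library, the mean log2 CPM of the replication genes spanned a narrow range, 1.99 to 2.30 in the WRE-edited and 2.04 to 2.34 in the Rosa26-edited libraries, with a median of 2.03 and 2.26. The mitotic mean spanned 0.79 to 2.49 and 1.88 to 2.30. WRE-edited 3 and 6 were lowest in mitotic genes, at 0.85 and 0.79, while their replication means, 2.03 and 1.99, were like those of WRE-edited 1 (2.04) and 4 (2.01). WRE-edited 4 and 5, the libraries of r711, had mitotic means of 2.41 and 2.49, above every Rosa26-edited library. The replication mean minus the mitotic mean was 0.50, 0.44, 1.18, -0.40, -0.19 and 1.20 in WRE-edited 1 to 6, and -0.24, 0.11, 0.43, -0.05 and -0.03 in Rosa26-edited 1 to 5. The groups did not overlap on this difference within r595 and, narrowly, within r770, but the WRE-edited libraries of r711 lay among the controls or below them. The names of WRE-edited 4 and 6 carry the same number, and the labels do not say whether they come from 1 animal.

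**Figure D4:**
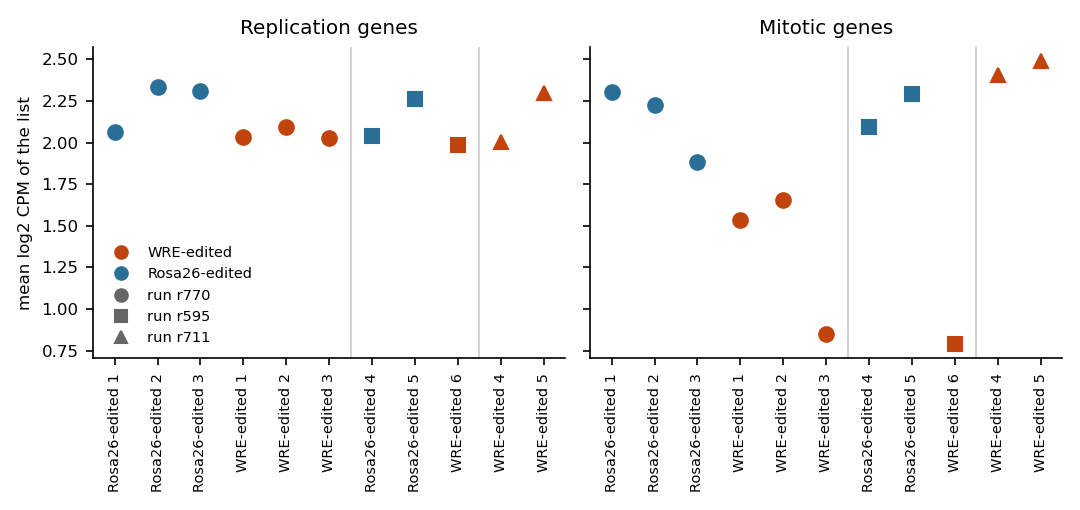
Mean log2 CPM over 42 replication genes (left) and 48 mitotic genes (right) in each of the 11 libraries, ordered and shaped by run and coloured by group. Replication means stay between 1.99 and 2.34, whereas mitotic means run from 0.79 in WRE-edited 6 to 2.49 in WRE-edited 5.

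The runs were also compared with each other in the same fit. Against r770, the libraries of r711 had a median log2 difference of 0.20 over the replication genes, with 30 of 42 positive, 0 called at an adjusted p under 0.05 by edgeR's quasi-likelihood test with Benjamini-Hochberg adjustment or by DESeq2, 2 higher at an unadjusted p under 0.05 (Pole and Mcm4) and 1 lower (Dut). Of all genes 0.0695% were called higher and 0.0486% lower at the adjusted p, and 6.37% and 6.82% at the unadjusted p. The mitotic median in that comparison was 1.17, with 41 of 48 higher at the unadjusted p and 3 (Kif20a, Racgap1 and Ccnb1) at the adjusted p. Because r711 holds WRE-edited libraries alone, run and animals cannot be told apart there. Against r770, the libraries of r595 differed at an adjusted p under 0.05 for 7 of 42 replication genes (16.7%), which is close to the share of all genes, 16.2%. Mcm2 (0.57 ± 0.18), Uhrf1 (0.88 ± 0.24) and E2f8 (0.74 ± 0.21) were higher, against 7.11% of all genes, and Orc6 (-1.02 ± 0.21), Mcm10 (-1.58 ± 0.35), Fen1 (-0.70 ± 0.18) and Tyms (-0.64 ± 0.19) were lower, against 9.07%.

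Other genes of the replication machinery lay where the 42 did. Of 42 listed, 41 were tested, with a median of -0.16 (-0.08 without Rosa26-edited 2, -0.10 without Rosa26-edited 5). Of the 41, 31 were negative, against 48.3% of all genes. At an unadjusted p under 0.05, 4 were lower, against 5.14% of all genes, and 0 higher, against 4.95%. At an adjusted p under 0.05, 0 were called (smallest adjusted p 0.384, edgeR's quasi-likelihood test with Benjamini-Hochberg adjustment), against 0.00695% of all genes lower and 0% higher. The 4 were Dck, the deoxycytidine kinase (-0.55 ± 0.16), Atad5, which unloads the clamp (-0.67 ± 0.22), Pclaf, a partner of the clamp (-0.96 ± 0.32), and Orc4, an origin recognition subunit (-0.42 ± 0.17). Pclaf was nearest to the mitotic median.

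Markers of most other liver cells had negative median fold changes in the WRE-edited libraries. The median log2 fold change was -0.42 over 8 macrophage markers, -0.23 over 8 endothelial markers, -0.52 over 8 stellate and fibroblast markers, -0.51 over the 2 lymphocyte markers tested, -0.51 over the 4 neutrophil markers tested and -1.25 over the 4 erythroid markers tested, -0.05 over the 2 cholangiocyte markers tested, and -0.03 over 8 hepatocyte markers. At an unadjusted p under 0.05, 1 stellate and fibroblast marker and 2 erythroid markers were lower, against 5.14% of all genes. At that p, 1 hepatocyte, 1 erythroid and 1 cholangiocyte marker were higher, against 4.95% of all genes. Some of these medians rest on Rosa26-edited 2, in which the summed erythroid level was 24.9 CPM, against 6.78 to 10.3 CPM in the other controls and 7.8 to 10.9 CPM in the WRE-edited libraries. Neutrophil markers were at 22.4 CPM there, against 5.03 to 11.2 CPM and 5.44 to 7.11 CPM. Without that library the medians were -0.81 (erythroid, 3 tested), 0.08 (neutrophil), -0.31 (lymphocyte), -0.18 (macrophage) and -0.14 (endothelium). The cholangiocyte median changed sign with the library left out, from -0.21 without WRE-edited 1 to 0.25 without Rosa26-edited 5. The macrophage median was also -0.19 without Rosa26-edited 5, the endothelial median -0.11 without Rosa26-edited 1, and the stellate and fibroblast median -0.84 without WRE-edited 1. The erythroid marker Rhag was at 0 in every library. Rosa26-edited 5, the library highest in macrophage markers, was also the highest for several replication genes, among them Mcm4, Mcm5, Uhrf1 and E2f8. The part of these cells in the levels of the replication genes was not tested.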

How the data were processed

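RNA was measured in 11 libraries of hepatocytes. The authors aligned reads to GRCm38 with STAR 2.7.6a and counted them with RSEM 1.3.1, per the submitters' processing notes. No source used here gives the annotation version or strand setting. Per the file headers, the deposited tables hold expected counts, TPM and, as other values, effective gene lengths. Of 55536 gene identifiers, 55450 matched a symbol. Expected counts were rounded to whole numbers. Groups were taken from the labels and runs from the library names. edgeR 4.0.16 in R 4.3.3 was used with filterByExpr (minimum count 10, minimum total 15), TMM scaling and a quasi-likelihood fit (robust) of run and group over 14393 genes (7 residual degrees of freedom), two-sided, with Benjamini-Hochberg adjustment over all of them. The effect comes from r770 and r595. Run by group was fitted on those runs over 14582 genes. DESeq2 1.42.0, other scaling, no filter, no run term, r770 alone, replicate block, summed libraries, effective lengths and leaving out libraries were alternatives. List means used log2 CPM with a prior count of 2. The fit was tested on simulated data that held no difference between runs, unlike these libraries, and the outcome is not given here. Replicates differed beyond counting noise.

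The members and the gene lists were chosen with earlier results of these data known, so list counts are descriptions. The lists were the replication genes in 9 roles, other replication genes, G1 to S control, mitotic genes, DNA damage and p53 targets, and markers of hepatocytes, macrophages, endothelium, stellate cells and fibroblasts, lymphocytes, neutrophils, erythroid cells and cholangiocytes. Levels per library are given for up to 3 members of each role by smallest p and for Mcm2, Pcna, Rrm2, Cdc6 and E2f1, and members with positive fold changes are named; of other lists up to 4 genes by smallest p are named. Rian, Meg3, Kif20a, Ube2c and Eif4a2 and other overlapping genes were named after their values or places were seen. Promoters and coordinates are from RefSeq GRCm38.p6, and 17 of the 43 genes overlap another annotated gene. The deposited normalized matrix and the miRNA counts were not used.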

Additional observations from a re-analysis of the deposited data

Results flagged for a closer look

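Of 84 sets of levels (42 genes in each of the 2 groups), 9 held a library far from the others of its group, by a gap beyond Dixon's 95% critical value; chance gives about 5% of such sets. Rosa26-edited 5 was the high library for Mcm4 (11.7 CPM, next 6.73), Mcm5 (14.3 CPM, next 9.49), Prim2 (3.71 CPM, next 3.12) and Uhrf1 (7.23 CPM, next 3.63). WRE-edited 6 was the high library for Pold1 (4.17 CPM, next 2.69) and E2f2 (2.02 CPM, next 1.39) and the low one for Orc6 (1.62 CPM, next 3.36). Pcna was high in WRE-edited 5 (28.5 CPM, next 24.9) and E2f7 in Rosa26-edited 3 (0.856 CPM, next 0.481). Groups pool runs here, and both WRE-edited 6 and Rosa26-edited 5 belong to r595, in which Uhrf1 was higher and Orc6 lower than in r770 by the test of runs.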

How the results depend on the processing

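Under all 21 alternatives, 0 replication genes were called at an adjusted p under 0.05, their median stayed negative and the mitotic median stayed below it. Removing WRE-edited 4 or 5 could barely move the fold changes, because r711 holds no Rosa26-edited library and the fit has a run term. The replication and mitotic medians were then -0.19 and -0.95, as in the main fit, so these removals are no check of them. Leaving out each library in turn gave a replication median of -0.22 to -0.12, 2 to 5 replication genes lower at an unadjusted p under 0.05, a mitotic median of -1.06 to -0.76 and 27 to 41 mitotic genes lower at that p. The count of replication genes was 2 in r770 alone, where 21 mitotic genes were lower. With no run term the mitotic median was -0.39 and 3 mitotic genes were lower; when WRE-edited 4 and 6 were summed, without a run term, the values were -0.38 and 5, with 2 replication genes lower. Without WRE-edited 3 and 6, an alternative chosen after seeing the data, the mitotic median was -0.52 with 20 genes lower, and 2 replication genes were lower. Mitotic genes called at an adjusted p under 0.05 numbered 17 in DESeq2 and 25 with no filter on low counts. The cause of these shifts was not tested. Shares of all genes at an unadjusted p under 0.05 in the alternative fits are not given, so the counts here and below lack that background.

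Labels give both groups replicate numbers without saying that a number marks a shared animal or day, and deviations of same-numbered libraries correlated at -0.25 to 0.15 over genes, so the numbers were not taken as pairs. With the replicate block and the run term, 3 replication genes were lower (median -0.18), and the mitotic values were -0.79 and 33; with the replicate block and no run term they were 2, -0.13, -0.34 and 6.

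Counts were low for some of the genes (E2f7 had 5 to 24, Cdc6 14 to 40), r595 has 1 WRE-edited library, and the intervals allow differences that these libraries could not detect.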

Other observations

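Genes that control the passage from G1 to S lay around 0 as a list, with a median log2 fold change of 0.07. Of 21 tested, 12 were positive and 9 negative, where 48.3% of all genes were negative. At an unadjusted p under 0.05, 2 were lower, against 5.14% of all genes, and 0 higher, against 4.95%. At an adjusted p under 0.05 there were 0 (smallest adjusted p 0.336, edgeR's quasi-likelihood test with Benjamini-Hochberg adjustment). The 2 were Rbl1, which encodes the pocket protein p107 (-0.72 ± 0.18), and Ccne2, which encodes cyclin E2 (-0.80 ± 0.23). Cdc25a, a phosphatase that activates cyclin-dependent kinases, was at 0.46 ± 0.21, and Rb1, the retinoblastoma protein gene, at -0.31 ± 0.16 (-0.47 without WRE-edited 6, -0.18 without Rosa26-edited 1). Without WRE-edited 3 and 6, Rbl1 was at -0.43 and Ccne2 at -0.51. DNA damage and p53 target genes had a median of -0.05 over 15 tested. At an unadjusted p under 0.05, 1 was lower (Plk2, -0.54 ± 0.17), near the 5.14% of all genes, and 0 were higher, against 4.95%. At an adjusted p under 0.05 in the same test there were 0 (smallest 0.398). Trp53inp1 was at -0.52 ± 0.29 (-0.35 without WRE-edited 3). Btg2 was at -1.24 ± 0.57 and Gadd45a at -0.94 ± 0.44, and both rest on Rosa26-edited 1. Btg2 was at 191 CPM there, against 21.8 to 33.4 CPM in the other controls and 18.9 to 35.3 CPM in the WRE-edited libraries, and Gadd45a at 5.95 CPM, against 1.03 to 1.82 CPM and 1.17 to 1.70 CPM. Without that library the values were -0.26 for Btg2 and -0.23 for Gadd45a. The list median was near 0 throughout, between -0.10 without Rosa26-edited 5 and 0.04 without Rosa26-edited 2.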
